A study of Mus musculus with 16 samples.

Results

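The short introns described here are the rows of an intron count table whose end lies 80 to 1000 bp after their start and which averaged at least 10 counts over 16 libraries of a mouse neuron line. There were 2092 such rows, of 200168 rows in the table and of 81671 rows in that length range at any count. The rows were chosen by their length and their mean count, and no comparison between groups was used. The limit on counts fell in a dense part of the range, with 113 rows of this length averaging less than 0.5 counts above it and 130 averaging less than 0.5 below it. Among rows with enough counts, 58 ran 80 to 84 bp from start to end and 56 ran 75 to 79 bp, while 40 lay within the 20 bp below the upper length limit and 28 within the 20 bp above it. Of the 2092, 2074 could be joined to the exons of 1 gene row, and 2047 of these, in 1323 gene rows, belonged to a gene with an exon sum of at least 50 counts on average. These 2047 were compared between groups, among 24689 introns of all lengths that met the same count limits.

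The name intron held for part of these rows only. Set against the GENCODE M21 annotation (GRCm38), 900 rows were complete introns of a transcript. A further 872 were exactly an annotated exon that lies inside a longer intron of another transcript, so they are alternative exons. Another 308 were other pieces of an intron, and 12 had no match. Alternative exons had a median length of 132 bp and complete introns one of 615.5 bp. Clock held 18 rows, Trim37 18, Anln 16 and Acap2 13, all of them alternative exons, while Eif4a2 held 9 complete introns and 2 alternative exons. Exon bins of the same gene covered 1450 of the 2092 rows wholly and 325 in part. All 872 alternative exons were covered wholly. Of the complete introns, 363 were covered wholly and 239 in part, and 197 lay under a transcript annotated as a retained intron. Which other annotated exons cover these rows was not tested. No exon bin on either strand touched 198 rows. Exon bins of the other strand overlapped 194 rows, 90 rows held a small RNA gene, and 585 lay under a transcript annotated as a retained intron.

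Total RNA without ribosomal RNA was sequenced from mHiPPoE-2 cells, a transformed line of mouse hippocampal neurons, in 8 groups of 2 libraries. METTL3 KO cells were 1 clonal isolate edited with Cas9 to remove METTL3, and the unedited WT cells were their reference. KO rescue cells were RBM45 KO cells that carry F-HA-tagged RBM45_mut[delta]gRNA (2 clones), RBM45 KO cells were edited with Cas9 (2 clones), and control cells received Cas9 with no guide RNA (2 clones). No cells were treated. The labels do not say whether the 2 libraries of a group came from separate cultures, so p-values measure the spread between these libraries or clones only.

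The study asked what loss of METTL3, which writes N6-methyladenosine into RNA, and loss of RBM45, an RNA-binding protein, do to the transcripts of these cells, as far as the genotypes tell. Mettl3 averaged 4.53 ± 0.0852 CPM (gene counts scaled by the library total) in METTL3 KO and 9.23 ± 0.953 in WT (SD, n = 2 each). Rbm45 averaged 27.2 ± 3.67 in KO rescue, 6.79 ± 1.32 in RBM45 KO and 13.8 ± 3.39 in control (SD, n = 4 libraries each). Of the markers of neurons, Map2 reached 33.7 to 139 CPM and Tubb3 0.241 to 3.39 CPM. Syp had at most 6 counts in any library, Rbfox3 and Snap25 at most 1 count and Nefl none. Of the progenitor markers, Nes reached 142 to 313, Sox2 18.1 to 61 and Pax6 8.92 to 35.7 CPM. Of the mesenchymal markers, Vim reached 512 to 1530, Fn1 764 to 1910, Col1a1 27.4 to 1170 and Col1a2 0.122 to 4.81 CPM. The microglial marker Cx3cr1 reached 25.8 to 47.1 CPM, while Aif1 and Ptprc had at most 4 and 2 counts. The libraries held 7193908 to 18751324 gene counts each, and the short introns held 40568 to 103123 counts, or 1.78% to 2.74% of the intron table. An intron with 10 counts has a 95% exact Poisson interval of 4.8 to 18.4 counts, which covers counting error only. The median short intron averaged 19.16 counts.

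Introns are cut out of the primary transcript by the spliceosome, which reads a GT at their start and an AG at their end in nearly all cases. A retained intron stays in the otherwise spliced RNA, which is then often held in the nucleus or destroyed by nonsense-mediated decay. Retention is well known in the genes of the splicing machinery itself, such as the SR proteins and the Clk kinases that phosphorylate them, and in Mat2a, whose last intron is retained or spliced according to the supply of S-adenosylmethionine. In neurons, retained introns are also known as a store of nuclear RNA that can be spliced on a signal. Total RNA, as used here, holds unspliced primary transcripts as well, and a count over an intron does not tell a retained intron from one not yet removed. In bulk RNA, fewer cells with an RNA and less of it per cell cannot be told apart.

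The sequence of 344 of the short complete introns could be read from GENCODE M21 transcripts that run across them. Of these, 334 began with GT and ended with AG (97.1%), 9 ran from GC to AG and 1 from AT to AC, and their GC content ran from 24.4% to 87.8% with a median of 51.1%. The splice sites of 4 of these that rose in KO rescue against RBM45 KO, of Anapc5, which had the third smallest p in METTL3 KO and did not pass, and of the textbook retained introns of Clk1 and Mat2a are given below on the strand of the gene. Introns of Rbms1, Pcbp2 and Abi1 and intron 4 of Eif4a2, which passed in later comparisons, are given by position only. Capitals mark the intron and lower case the flanking exon, with 10 exon and 20 intron bases at the 5′ site and 27 intron and 3 exon bases at the 3′ site.
Anapc5 intron 10 (chr5:122799475-122800450, minus strand), 5′ site: acggccgcagGTAGGTCTCCAGGCAGCCTG
Anapc5 intron 10, 3′ site: GACCTGTCCCCTCCTCTCCTCACCCAGcac
Fubp1 intron 19 (chr3:152232023-152232394, plus strand), 5′ site: agcacctcagGTAGAAAACATTTGCTATTT
Fubp1 intron 19, 3′ site: TATCTCTTATGTATCTCTTCTGCACAGggc
Zfp207 intron 14 (chr11:80402712-80403364, plus strand), 5′ site: gccagtacagGTTAGTTTAATCTGTAAGTA
Zfp207 intron 14, 3′ site: TTTTTTTTTAAACGTAATTCTTGGAAGacg
Rbm3 intron 3 (chrX:8143948-8144572, minus strand), 5′ site: gaatggagagGTGAGGCCTCCTGCCTGCAC
Rbm3 intron 3, 3′ site: TTGTGTCTGTCTCCTTCCCATACCTAGtcc
Srsf1 intron 3 (chr11:88049216-88049411, plus strand), 5′ site: atctcacgagGTAGGTTATACACTTATTCT
Srsf1 intron 3, 3′ site: CAATGGAAAGTTCTGTCTATCCAATAGgga
Clk1 intron 3 (chr1:58420212-58421082, minus strand), 5′ site: ttcacacgggGTATGAGTGCCTTTTAAACG
Clk1 intron 3, 3′ site: CTGGTGCCGCCCACTTGACGTGTCCAGaag
Clk1 intron 4 (chr1:58419734-58420120, minus strand), 5′ site: agtgcaagatGTATAGAATATTTTTCAACA
Clk1 intron 4, 3′ site: TGAATAATAATTATTCCTCTTTTTTAGatg
Mat2a intron 8 (chr6:72434396-72434980, minus strand), 5′ site: tcattgtcagGTAAAGATGGTAAAACCTAT
Mat2a intron 8, 3′ site: ATTAAGTTATGGACTTGTATATTCCAGgga

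A pair of short introns that carry a small nucleolar RNA (snoRNA) gene is shown whole, from the first to the last intron base, with the annotated snoRNA gene in capitals. In both the snoRNA takes up a large stretch of the intron, so fragments of the snoRNA fall on the same row as fragments of unspliced RNA.
Eif4a2 intron 8 with Gm26447 (chr16:23111264-23111502, plus strand): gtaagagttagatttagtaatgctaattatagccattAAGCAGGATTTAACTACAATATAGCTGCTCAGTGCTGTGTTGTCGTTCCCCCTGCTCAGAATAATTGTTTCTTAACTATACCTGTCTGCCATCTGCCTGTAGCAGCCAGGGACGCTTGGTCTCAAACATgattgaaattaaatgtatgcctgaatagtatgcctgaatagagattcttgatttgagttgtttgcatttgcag
Hspa8 intron 6 with Snord14d (chr9:40803943-40804164, plus strand): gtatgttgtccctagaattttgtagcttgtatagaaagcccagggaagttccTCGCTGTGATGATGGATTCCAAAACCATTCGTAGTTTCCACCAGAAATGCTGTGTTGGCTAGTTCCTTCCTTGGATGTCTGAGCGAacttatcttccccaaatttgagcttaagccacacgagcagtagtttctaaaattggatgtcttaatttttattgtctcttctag

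How much of a short intron was seen depended first on what the row was. Relative coverage, the counts per kilobase of the row over the counts per kilobase of all exon bins of its gene, had a median of 196% over 871 alternative exons and of 15.2% over 871 complete introns. Complete introns longer than 1000 bp had a median of 4.73% (21201 introns), and the 190 short complete introns that no exon bin touches had one of 4.87%. A short row needs more counts per kilobase than a long one to average 10 counts. The limit on counts therefore favours high coverage among short rows. A read pair also counts on any row that holds 0.1 of it. The part of either in these differences was not tested. Values over 100% are possible, since bins that few transcripts use count toward the exon length of the gene. Fragments of a small RNA inside a row also count on that row. What lies behind single values over 100% was not tested. In those 190 introns, the middle part of the distribution ran from 1.93% to 10.3% and the whole range from 0.307% to 368%. The 37 that are the last intron of their transcript had a median of 7.34%, and the other 153 one of 4.47%. Among all short complete introns, 23.3% were the last intron of their transcript and 23.7% the first, against 7.93% and 20.2% of the longer complete introns. Short complete introns also came from transcripts with fewer introns, with a median of 9 against 14, and 9.53% of them held a small RNA gene. The limit on counts chose both sets, and the median exon sum was 1138 for the short and 525.5 for the longer complete introns. The part of the limit in these contrasts was not tested.

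The highest relative coverage outside exon bins, in genes with at least 500 exon counts, was that of intron 1 of Trrap (chr5:144771250-144771607), the scaffold of histone acetyltransferase complexes, at 119%. Intron 3 of the tubulin polyglutamylase gene Ttll4 followed with 43.2%, and intron 1 of Meis2, a homeobox gene, with 31.9%. Intron 11 of Mgea5, which encodes the enzyme that removes O-GlcNAc, reached 22.8%. The last introns of Hnrnpa2b1 (22.7%), Cdk17 (20.4%), Mcl1 (19.2%), Hnrnpa1 (18.8%) and Nipbl (18.1%) and intron 12 of U2surp (22.3%) completed the 10. Hnrnpa2b1 and Hnrnpa1 encode RNA-binding proteins of the hnRNP A/B family, Mcl1 an inhibitor of apoptosis and Nipbl the cohesin loader. In 167 short introns of the same kind the median was 4.11%. None of these 10 introns passed the test in any of the 4 comparisons that follow. For Hnrnpa1, whose last intron is 227 bp long, the count per 100 exon counts was 1.43 and 1.75 in METTL3 KO, against 0.852 and 1.03 in WT.

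The ratio of the row count to the exon-bin sum of the gene, on a log2 scale, varied little between libraries for alternative exons. Their median, over 871 rows, lay between -4.54 and -4.45 in all 16 libraries, while that of the 190 short complete introns outside exon bins ran from -7.9 to -7.07. For short complete introns the group mean of the library medians was -5.83 ± 0.0884 in METTL3 KO and -6 ± 0.0884 in WT (SD, n = 2 each). It was -5.94 ± 0.119 in KO rescue, -6.08 ± 0.0629 in RBM45 KO and -6.01 ± 0.134 in control (SD, n = 4 each). For complete introns of 3 to 10 kb the same means were -4.48 ± 0.0665 in METTL3 KO and -5.07 ± 0.133 in WT, and -4.59 ± 0.213 in KO rescue, -5.04 ± 0.112 in RBM45 KO and -4.89 ± 0.275 in control. The 190 short introns outside exon bins stood at -7.11 ± 0.0608 in METTL3 KO and -7.61 ± 0.0771 in WT, and the libraries of these groups did not overlap. With 2 libraries against 2 an exact permutation test cannot fall below 0.333, so these medians are given as a description. The 4 control libraries ran from -7.77 to -7.41 in this set, as the plot of library medians shows. They split by replicate number, with -7.758 and -7.768 in replicate 1 of clones 1 and 2, against -7.414 and -7.415 in replicate 2. For complete introns of 3 to 10 kb these values were -5.064 and -5.191, against -4.648 and -4.671. In KO rescue, replicate 2 was the higher in clone 1 and the lower in clone 2. The SD over 4 control libraries therefore holds a difference between replicates.

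**Figure D1:**
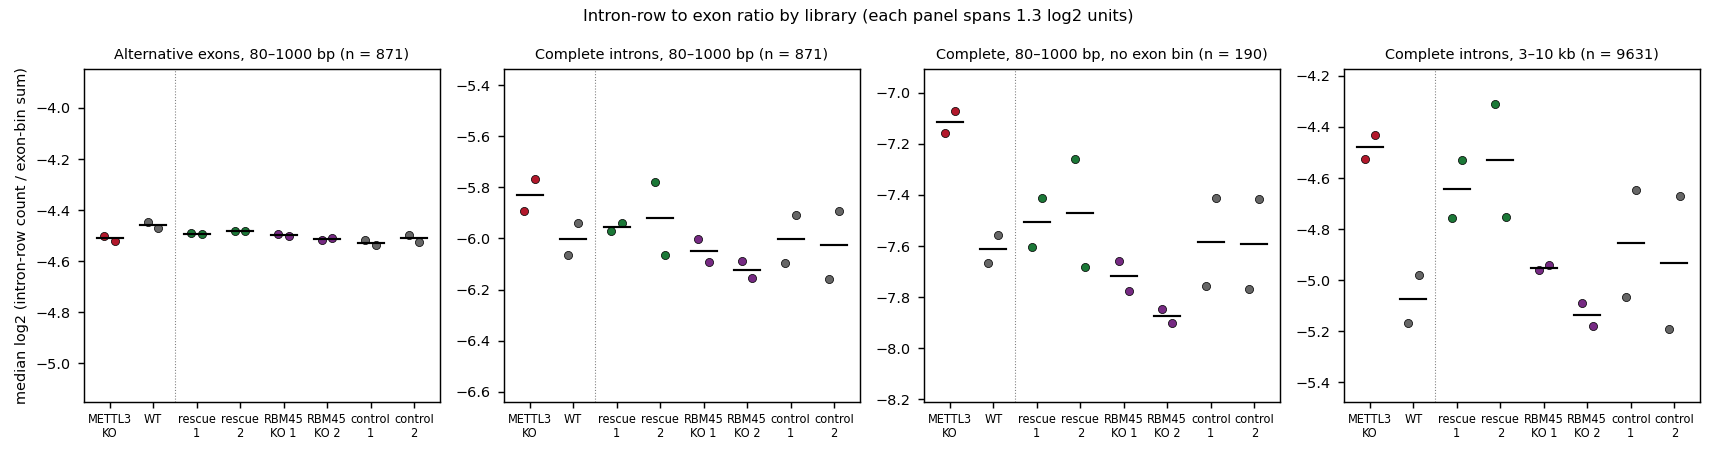
Median log2 ratio of row count to exon-bin sum in each library (points) with the mean of the 2 libraries of a group (bars), for short alternative exons, short complete introns, short complete introns that overlap no exon bin, and complete introns of 3 to 10 kb. Each panel spans 1.3 log2 units. The alternative exons lie flat between -4.54 and -4.45, and in the panels at the right METTL3 KO lies above WT.

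METTL3 KO against WT was fitted over all 16 libraries with edgeR's quasi-likelihood test, with the exon-bin sum of the gene as offset, so a change is a change of the row relative to the exons of its gene. Of 2047 short introns 2 rose and none fell at an adjusted p under 0.05 (0.0977%), while 1.45% of all 24689 introns passed. Both lay in genes of RNA-binding proteins, Rbms1 and Pcbp2. At an unadjusted p under 0.05 there were 86 short introns (4.2%), against 25% of all introns. The median log2 change was 0.0332 over the short introns, 0.177 over the 871 complete ones, -0.0176 over the alternative exons, and 0.554 over all introns. That last shift concerns most introns of the libraries, and after each library was centred on its median intron no short intron was higher and 9 were lower, with 0.474% of all introns called. Rbms1 and Pcbp2 were not among those 9. METTL3 KO is 1 clone, so the comparison is between lines, and without any 1 of the 4 libraries no short intron passed.

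The size of the METTL3 KO change followed the length of the intron, as changes without METTL3 KO also did. Complete introns of 80 to 200 bp had a median log2 change of -0.0904 (n = 94), those above 200 and up to 500 bp one of 0.0414 (n = 243) and those above 500 bp and up to 1000 bp one of 0.27 (n = 534). Complete introns of 1 to 3 kb stood at 0.5 and those over 30 kb at 0.681. At 80 to 200 bp and over 30 kb, the medians were -0.0453 and 0.582 in KO rescue against RBM45 KO. They were -0.0743 and 0.295 in KO rescue against control and -0.0297 and -0.28 in RBM45 KO against control. The control clones against WT had -0.0415 and 0.235, while control clone 2 against clone 1 had 0.00476 and 0.049. Overlap with exon bins went with it: short complete introns wholly inside an exon bin of the gene had a median of 0.0711 (n = 363), those partly inside 0.192 (n = 237) and those that no exon bin touches 0.406 (n = 190). In 97 genes that held both a short and a longer complete intron outside exon bins, the median change was 0.589 for the short and 0.525 for the longer introns, and the longer one was higher in 46 of the 97. Without that restriction, in 444 genes, the medians were 0.208 and 0.502, and the longer introns were higher in 65.5% of genes. Counts of reads from exons of other transcripts of the gene enter both the row and the exon sum of a row inside an exon bin, and their part in the result was not tested.

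**Figure D2:**
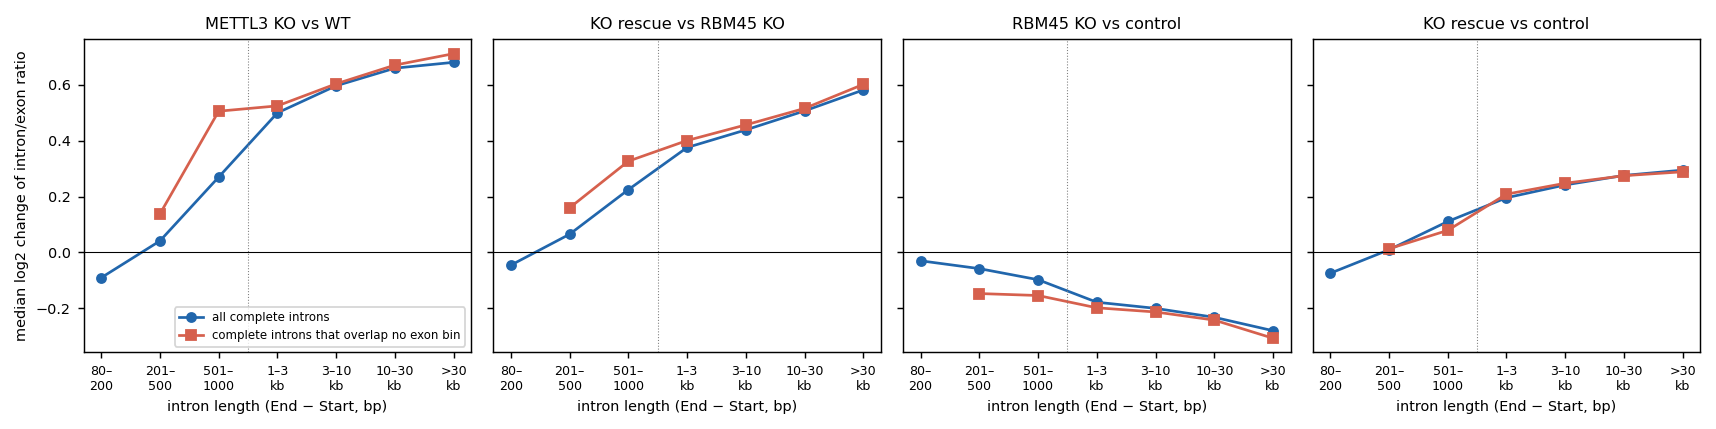
Median log2 change of the ratio of intron count to exon-bin sum by intron length (End minus Start, bp), for all complete introns (circles) and those that overlap no exon bin (squares); points with under 20 introns are left out, and the dotted line marks 1000 bp. In METTL3 KO against WT the median of all complete introns runs from -0.0904 at 80 to 200 bp to 0.681 over 30 kb. Over the same range it runs from -0.0453 to 0.582 in KO rescue against RBM45 KO. It runs from -0.0297 to -0.28 in RBM45 KO against control and from -0.0743 to 0.295 in KO rescue against control.

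Rbms1, which encodes a single-strand DNA- and RNA-binding protein, had the largest rise in METTL3 KO. Its intron 10 (chr2:60758855-60759758, 904 bp, outside exon bins) had 14 and 24 counts in METTL3 KO, against 3 and 3 in WT. Per 100 exon counts these were 4.62 and 3.56 in METTL3 KO, against 0.739 and 0.495 in WT. The other 12 libraries lay between 0.52 and 1.92, so the METTL3 KO libraries were the highest of all 16. The log2 change was 2.71 ± 0.55 (SE), with an adjusted p of 0.0227 by edgeR's quasi-likelihood test.

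Pcbp2, which encodes a poly(C)-binding protein of mRNA stability and translation, had a rise in intron 11 (chr15:102488278-102488775, 498 bp, with 155 bp in an exon bin). It stood at 0.766 and 0.77 per 100 exon counts in METTL3 KO, against 0.197 and 0.268 in WT. The other 12 libraries reached at most 0.56. The log2 change was 1.68 ± 0.40 (edgeR, adjusted p = 0.0402). Intron 12 of the same gene, 937 bp long, had a change of 1.00 ± 0.35 and did not pass (edgeR, adjusted p = 0.0912). The row joins Pcbp2 with the small gene Gm27406.

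The other 3 with the smallest p in METTL3 KO against WT did not pass. Intron 10 of Anapc5, a subunit of the anaphase-promoting complex, had 1.51 and 2.18 per 100 exon counts in METTL3 KO, against 0.619 and 0.635 in WT, a log2 change of 1.58 ± 0.43 (edgeR, adjusted p = 0.0518). It lies wholly inside an exon bin. A piece of an intron of Taf1d, an RNA polymerase I factor whose introns hold many snoRNAs, had 1.39 and 1.13 in METTL3 KO, against 0.215 and 0.573 in WT (edgeR, adjusted p = 0.0572). Exon 4 of Mfge8, which encodes a secreted bridge between phosphatidylserine and integrins, had 2 and 6 counts in METTL3 KO, against 13 and 18 in WT, a log2 change of -1.90 ± 0.56 (edgeR, adjusted p = 0.0613). In the control clones that alternative exon had 0.278 and 0.57 per 100 exon counts in 1 clone and 1.00 and 1.72 in the other.

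**Figure D3:**
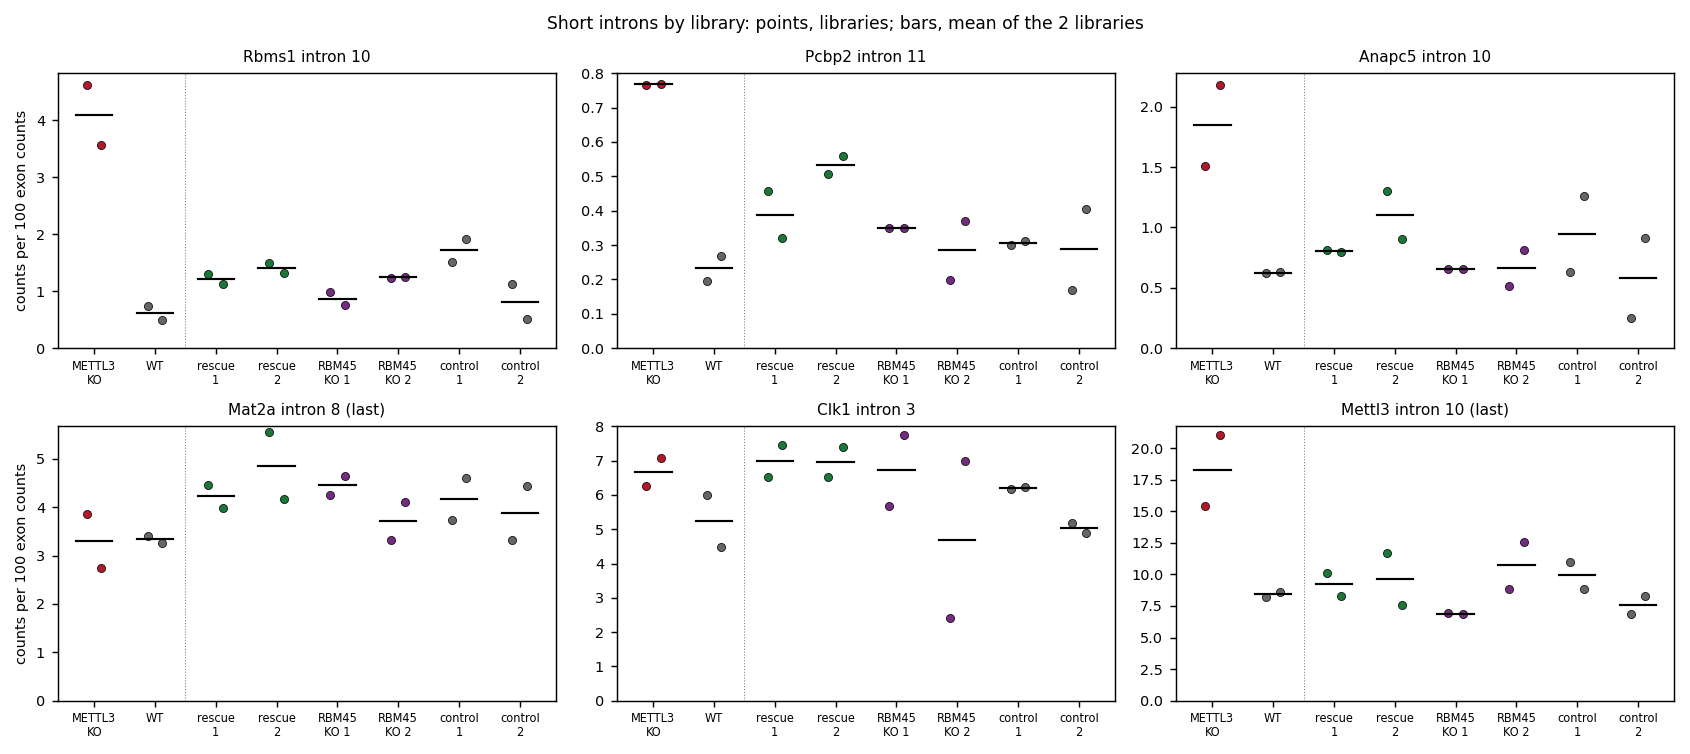
Counts per 100 exon-bin counts of the gene in each library (points) with the mean of the 2 libraries of each group (bars), for short introns of Rbms1, Pcbp2, Anapc5, Mat2a, Clk1 and Mettl3; each axis starts at 0. The METTL3 KO libraries of Rbms1 (4.62 and 3.56) lie above all other libraries, and those of Mat2a intron 8 (3.86 and 2.74) lie among them.

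RBM45 KO against control was fitted on the 6 clones of the experiment, each the sum of its 2 libraries. Of 2047 short introns 1 rose and none fell (0.0489%), while 0.0324% of all introns passed. It was intron 8 of Eif4a2, which encodes a DEAD-box helicase of translation initiation, the intron shown above with the snoRNA gene Gm26447. At an unadjusted p under 0.05 there were 96 short introns (4.69%), against 11.9% of all introns. The median log2 change was -0.0282 over short introns, -0.0743 over short complete introns and -0.19 over all introns. After centring on the median intron 3 short introns were higher, with 0.0648% of all introns called, and all 3 hold a snoRNA gene. By DESeq2 none passed.

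Eif4a2 intron 8 (239 bp, wholly inside an exon bin) had 11.8, 6.7, 10.9 and 9.25 counts per 100 exon counts in RBM45 KO, against 5.08, 3.65, 7.15 and 3.34 in control. The lowest RBM45 KO library lay below the highest control library, so the groups overlapped. The log2 change was 1.04 ± 0.20 (edgeR, adjusted p = 0.0499). KO rescue libraries lay between 4.52 and 10.4, and METTL3 KO had 5.99 and 2.86, against 7.19 and 7.05 in WT. Of the 6 fits that left out 1 clone, the call held in the 1 without RBM45 KO clone 1 and was lost in the other 5, with log2 changes of 0.93 to 1.13.

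The next by p did not pass. An intron of the joined row of Matr3 and AC121821.1 on chromosome 18 (35556692 to 35557336) that holds Snora74a had a log2 change of 0.94 ± 0.21 (edgeR, adjusted p = 0.11). Intron 5 of Tpt1 (chr14:75847361-75848098), a growth-related protein gene, holds Snora31 and went the other way. It had 0.234, 0.305, 0.271 and 0.314 per 100 exon counts in RBM45 KO, against 0.422, 0.67, 0.541 and 0.743 in control, and no libraries overlapped. The change was -1.05 ± 0.24 (edgeR, adjusted p = 0.139), while in KO rescue against RBM45 KO the intron rose by 0.79 ± 0.25 (edgeR, adjusted p = 0.0346). A piece of an intron of Aifm2, a suppressor of ferroptosis, had a change of 1.74 ± 0.42 (edgeR, adjusted p = 0.15), on 11.25 counts on average and with 363 bp under an exon bin of the other strand. Intron 8 of Pdlim5 had one of -1.39 ± 0.34 (edgeR, adjusted p = 0.15).

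KO rescue against RBM45 KO was fitted on the same 6 clones. Of 2047 short introns 30 rose and 5 fell (1.71% in all), while 16.8% of all 24689 introns passed, 4145 of them higher (16.8%) and 14 lower (0.0567%). Of the 30 that rose, 28 were complete introns and none was an alternative exon, and of the 5 that fell 3 were complete introns and 2 alternative exons. Every KO rescue library stood apart from every RBM45 KO library in 23 of the 35. The median log2 change was 0.0484 over short introns, 0.158 over short complete introns and 0.428 over all introns. After centring on the median intron no short intron was higher and 4 were lower (0.195%), with 0.117% of all introns called. Of those 4, 3 were among the 35. This comparison shares the RBM45 KO clones with RBM45 KO against control, so a change of opposite sign in the other comparison is not independent of it.

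The rises in KO rescue described next are named by the size of the change. Intron 19 of Fubp1, which encodes a nucleic-acid-binding regulator of Myc and of splicing, had 2.17, 2.05, 1.58 and 1.64 per 100 exon counts in KO rescue, against 0.669, 0.651, 0.604 and 0.945 in RBM45 KO. Control libraries had 1.35, 1.29, 0.613 and 1.02, and all 4 lay below all KO rescue libraries. The change against RBM45 KO was 1.37 ± 0.30 (edgeR, adjusted p = 0.0096). The intron is 372 bp long and lies wholly inside an exon bin.

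Intron 14 of Zfp207, a zinc finger gene of spindle assembly, had 1.9, 1.73, 2.5 and 1.53 per 100 exon counts in KO rescue, against 0.749, 1.23, 0.862 and 0.464 in RBM45 KO. The groups did not overlap, and the change was 1.18 ± 0.28 (edgeR, adjusted p = 0.0124). Intron 3 of the cold-inducible RNA-binding protein gene Rbm3 had 1.75, 1.85, 2.34 and 1.91 in KO rescue, 0.528, 1.01, 1.13 and 1.07 in RBM45 KO and 1.05, 0.575, 0.395 and 0.911 in control. The KO rescue libraries lay above all others of the experiment. The change was 1.03 ± 0.26 against RBM45 KO (edgeR, adjusted p = 0.0141) and 1.39 ± 0.25 against control (edgeR, adjusted p = 0.00987). Intron 3 of Srsf1, the founding SR splicing factor, had 0.863, 1.18, 0.949 and 0.618 in KO rescue, against 0.61, 0.429, 0.358 and 0.372 in RBM45 KO, a change of 1.02 ± 0.29 (edgeR, adjusted p = 0.0238). In Zfp207 and Rbm3 both METTL3 KO libraries also lay above both WT libraries, with log2 changes of 1.26 ± 0.50 and 1.06 ± 0.44 that did not pass.

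The largest rise was in intron 4 of Abi1, a subunit of the WAVE complex that starts actin branches, with a log2 change of 1.48 ± 0.31 (edgeR, adjusted p = 0.00859) and 110 bp in an exon bin. The others with the largest changes were intron 9 of the actin crosslinker gene Flna (1.25), intron 7 of Larp1, which binds the mRNAs of ribosomal proteins (1.10), intron 5 of the reductase gene Cyb5r1 (1.08), intron 8 of the splicing repressor gene Ptbp1 (1.06) and intron 1 of the RNA polymerase I factor gene Ubtf (1.05). The Flna intron rests on 10.94 counts on average in a gene with an exon sum of 35504, a relative coverage of 0.525%. The Ptbp1 intron lies under an exon bin of the other strand for 349 of its 629 bp, so reads of either strand cannot be told apart there.

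The 3 falls in KO rescue with groups apart were alternative exons of Adam17 and Naa60 and intron 4 of Eif4a2. Exon 8 of Adam17, the sheddase of TNF and of EGF receptor ligands, had 2.33, 1.97, 2.2 and 1.19 per 100 exon counts in KO rescue, against 4.09, 3.89, 4.72 and 3.38 in RBM45 KO. Its change was -1.05 ± 0.34 (edgeR, adjusted p = 0.0358), on 10.75 counts on average. Exon 2 of Naa60, an N-terminal acetyltransferase gene in a row joined with Cluap1, had a change of -0.90 ± 0.30 (edgeR, adjusted p = 0.0434). Intron 4 of Eif4a2 (chr16:23109260-23109984) had 0.87, 1.25, 1.06 and 0.956 in KO rescue, against 2.42, 1.83, 1.44 and 1.64 in RBM45 KO and 2.54, 1.69, 1.37 and 2.42 in control. KO rescue lay below both, with changes of -0.80 ± 0.25 (edgeR, adjusted p = 0.0353) and -1.02 ± 0.23 (edgeR, adjusted p = 0.0377). Both comparisons share the KO rescue clones.

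These counts rest on few clones. Without KO rescue clone 2 none of the 2047 short introns passed in KO rescue against RBM45 KO, without KO rescue clone 1 there were 10, without RBM45 KO clone 2 there were 6, and by DESeq2 there were none. KO rescue against control gave 8 rises and 1 fall (0.44%), while 1.1% of all introns passed. The fall was that of Eif4a2 intron 4, and the introns named here were chosen after their values were seen. Beside Rbm3, Aifm2 had a log2 change of 2.15 ± 0.39 (edgeR, adjusted p = 0.00964), with 15, 19.6, 27.5 and 28.3 per 100 exon counts in KO rescue, against 5.19, 6.85, 4.96 and 3.85 in control. Introns with snoRNA genes in Ipo7 (Snora23; 0.86 ± 0.20) and Hspa8 (Snord14d; 1.16 ± 0.29) also rose. The median log2 change was 0.0249 over short introns and 0.223 over all introns. Without control clone 2 or without KO rescue clone 2 none passed, without KO rescue clone 1 there was 1 and without control clone 1 there were 3, while without either RBM45 KO clone there were 17 and 16.

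**Figure D4:**
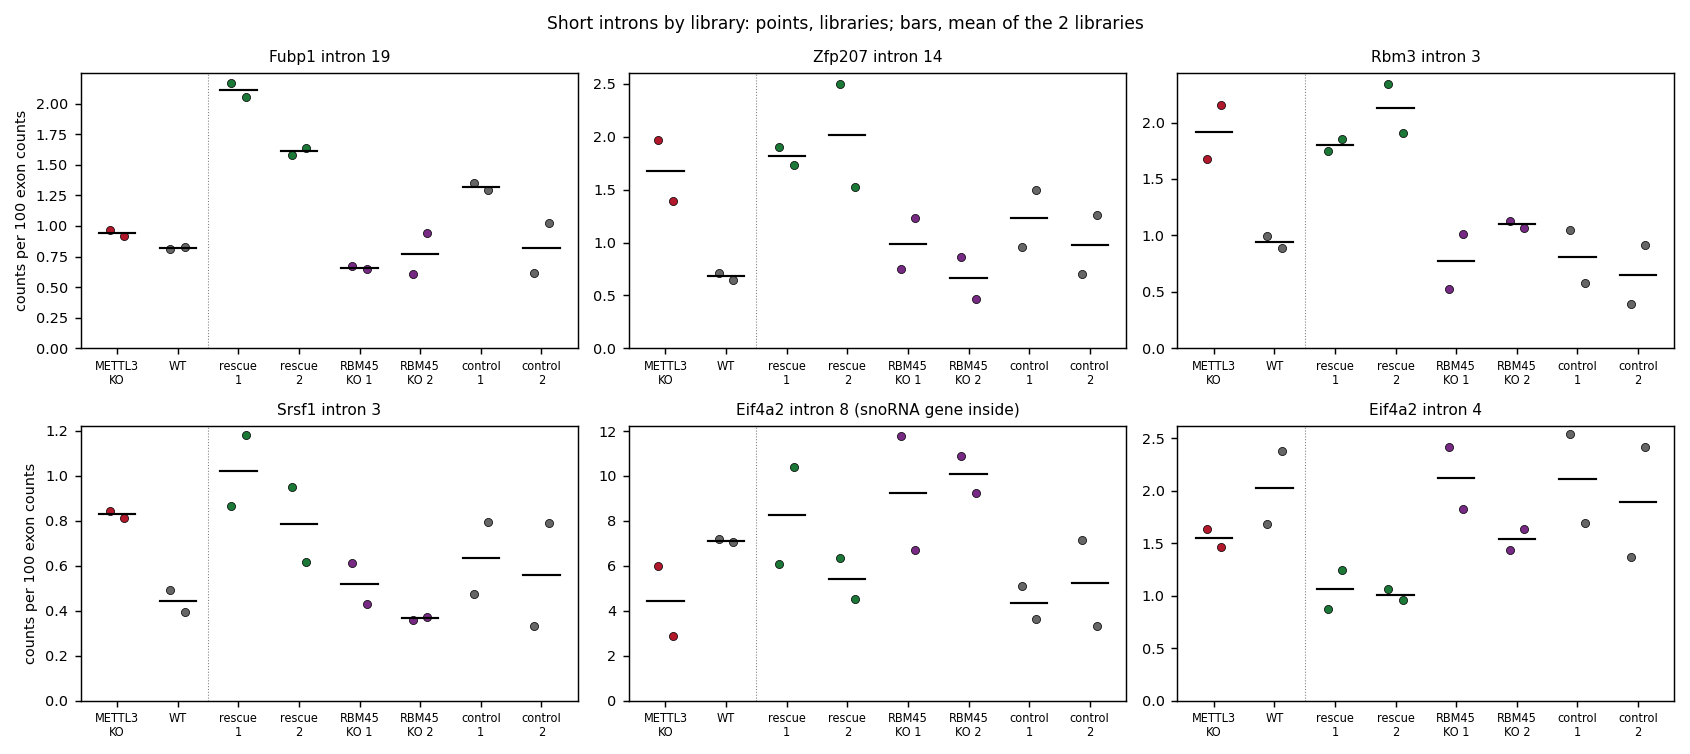
Counts per 100 exon-bin counts of the gene in each library (points) with the mean of the 2 libraries of each group (bars), for short introns of Fubp1, Zfp207, Rbm3 and Srsf1 and introns 8 and 4 of Eif4a2; each axis starts at 0. KO rescue lies above RBM45 KO and control in Rbm3 and below both in Eif4a2 intron 4, while the groups overlap in Eif4a2 intron 8.

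The clones of 1 genotype were compared with each other as a measure of the spread. These tests set 2 libraries against 2 in the fit over 16 libraries, while RBM45 comparisons used 6 summed clones. Counts of calls from the 2 fits are therefore not alike. With libraries as replicates, 0 short introns passed in RBM45 KO against control, 13 in KO rescue against RBM45 KO and 3 in KO rescue against control. No short intron passed between the control clones, the RBM45 KO clones or the KO rescue clones, nor between the control clones and WT (edgeR), where 0.0608%, 0.0405%, 0% and 0% of all introns passed. At an unadjusted p under 0.05 there were 61 short introns between the control clones (2.98%, against 3.3% of all introns), 68 between the RBM45 KO clones (3.32%, against 5.16%), 25 between the KO rescue clones (1.22%, against 2.13%) and 58 between the control clones and WT (2.83%, against 6.12%). The median log2 change over all introns was -0.162 between RBM45 KO clone 2 and clone 1 and 0.176 between the control clones and WT, against -0.0194 and 0.000883 over the short introns.

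Genes of the splicing machinery held short introns in each of the lists that were followed. The SR proteins and their relatives had 12 rows in 5 genes, 9 of them complete introns. In METTL3 KO none passed and the median log2 change was 0.409. There, 9 of 12 were above 0 (75%), against 84.9% of all introns, 53.9% of short introns and 61.7% of short complete introns. In RBM45 KO none passed and the median was -0.475. Of the 12, 2 were above 0 (16.7%), against 25.4% of all introns, 45.7% of short introns and 38.8% of short complete introns. In KO rescue against RBM45 KO those of Srsf1 and Srrm2 rose, and the median was 0.492. They were 16.7% of the list, against 16.8% of all introns, 1.47% of short introns and 3.21% of short complete introns. The share of the list rests on 2 rows. The 3 rows of Srsf3 cover the poison exon 4, which carries an early stop, and the introns on both sides of it. In RBM45 KO the exon had 1.93, 1.87, 1.85 and 2.07 counts per 100 exon counts, against 2.58, 3.88, 2.4 and 3.02 in control, and no libraries overlapped, with a change of -0.65 ± 0.22 that did not pass (edgeR, adjusted p = 0.276).

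The hnRNP genes and their relatives had 50 rows in 18 genes. In METTL3 KO that of Pcbp2 rose (2% of the list). Of all introns 1.44% rose, of short introns 0.0977% and of short complete introns 0.23%. Of the 50, 34 were above 0 (68%, against 84.9%, 53.9% and 61.7% of these sets), and the median was 0.187. In RBM45 KO none passed and the median was -0.126. Those of Ptbp1 and Taf15 rose in KO rescue against RBM45 KO (4% of the list). In that comparison 16.8% of all introns, 1.47% of short introns and 3.21% of short complete introns rose. The median of the list there was 0.186. Spliceosome genes had 18 rows in 12 genes. Their medians were 0.484 in METTL3 KO, -0.199 in RBM45 KO and 0.3 in KO rescue against RBM45 KO. In this last comparison that of Rbm5 rose (5.56%, against 16.8% of all introns, 1.47% of short introns and 3.21% of short complete introns). None passed in the other 3 comparisons. In KO rescue against control, where no row of the 3 lists passed, the medians were 0.107, 0.0395 and -0.0654. In the other 3 comparisons the medians of these lists have the sign of the median over all introns (0.554, -0.19 and 0.428). The medians over short introns (0.0332, -0.0282 and 0.0484) have the same signs. The members with the smallest p in the spliceosome list, introns of the helicase genes Dhx9 and Ddx17 in RBM45 KO (-1.12 ± 0.37 and -0.70 ± 0.32) and of Snrnp70 of the U1 particle in METTL3 KO (0.95 ± 0.52 and 1.07 ± 0.56), did not pass.

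Ribosomal protein genes had 72 rows in 42 genes, 71 of them complete introns, and none passed in any of the 4 comparisons (edgeR). The median log2 changes were -0.0202 in METTL3 KO, -0.161 in RBM45 KO, 0.0661 in KO rescue against RBM45 KO and -0.141 in KO rescue against control. At an unadjusted p under 0.05 there were 5, 8, 8 and 12 of the 72. The same limit held 7.12%, 8.27%, 14.5% and 13.8% of short complete introns. Of all introns it held 25%, 11.9%, 35.9% and 18.4%. The last intron of Rplp0, the stalk protein of the large subunit, had changes of 1.53 ± 0.60 in METTL3 KO and -0.97 ± 0.36 in RBM45 KO, on a relative coverage of 0.307%. Rpl37 intron 3 had a log2 change of 1.21 ± 0.51 in METTL3 KO, and intron 1 of Rpl26 one of -0.95 ± 0.34 in RBM45 KO. Neither passed.

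The other lists were small. Of 7 rows of the Clk kinases and the O-GlcNAc cycle none passed, of 5 rows of S-adenosylmethionine synthesis and m6A genes none passed, and of 4 rows of DNA repair and cell cycle genes none passed in any of the 4 comparisons. Their medians were 0.247, -0.0529 and 0.114 in METTL3 KO and 0.0714, -0.00181 and 0.135 in RBM45 KO. At an unadjusted p under 0.05 the first list had 1 row in RBM45 KO and 1 in KO rescue against control, and the second 1 in METTL3 KO. Of 46 rows in 13 snoRNA host genes none passed in METTL3 KO (median 0.15), and that of Eif4a2 intron 8 rose in RBM45 KO (median -0.0328). In KO rescue 2 rows of this list fell against RBM45 KO, both of Eif4a2 (median -0.00281), and 2 rose and 1 fell against control (median -0.0176). Of 7 rows of cold and stress RNA-binding proteins, with medians of 0.315 in METTL3 KO and -0.112 in RBM45 KO, that of Rbm3 rose in KO rescue against RBM45 KO and against control. Pabpn1 intron 8, which is wholly inside an exon bin of a row joined with Bcl2l2, had 4.17 and 4.2 per 100 exon counts in METTL3 KO, against 1.78 and 2.71 in WT, a change of 0.87 ± 0.37 that did not pass. A piece of a Wtap intron, from a gene of the m6A writer complex, had 6.2, 6.94, 8.1 and 7.84 in RBM45 KO, against 5.11, 6.2, 4.91 and 3.78 in control, and did not pass either (0.56 ± 0.29).

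Mat2a, which encodes the enzyme that makes S-adenosylmethionine, the methyl donor of METTL3, held 2 short introns. Its last intron, intron 8 (585 bp, wholly inside an exon bin, relative coverage 31.2%), had 3.86 and 2.74 counts per 100 exon counts in METTL3 KO, against 3.41 and 3.26 in WT. The groups overlapped, and the log2 change was -0.05 ± 0.34. It had 4.47, 3.99, 5.55 and 4.17 in KO rescue, 4.26, 4.65, 3.33 and 4.11 in RBM45 KO and 3.74, 4.61, 3.33 and 4.43 in control, and these groups overlapped. Intron 3 of Mat2a had a log2 change of 0.08 ± 0.43 in METTL3 KO and one of -0.44 ± 0.35 in RBM45 KO.

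Clk1, a kinase of SR proteins whose own introns 3 and 4 and exon 4 are a textbook case of regulated retention, held all 3 as rows. Intron 3 (871 bp) had 6.27 and 7.09 per 100 exon counts in METTL3 KO, against 6 and 4.47 in WT, a change of 0.41 ± 0.43. In the other groups its mean was 6.98 ± 0.525 in KO rescue, 5.7 ± 2.36 in RBM45 KO and 5.62 ± 0.684 in control (SD, n = 4 each). Intron 4 (387 bp) had 2.82 and 2.46 in METTL3 KO, against 0.667 and 2.03 in WT, where 1 library had a single count. Exon 4 (91 bp) between them had a log2 change of -0.04 ± 0.49 in METTL3 KO and one of 0.38 ± 0.31 in RBM45 KO. The relative coverage was 58.3% for intron 3, 53.8% for intron 4 and 310% for exon 4, and none passed in any comparison. Clk4 held 2 alternative exons, and Srsf5 a 126 bp piece with 10.25 counts on average. None of these passed.

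The last intron of Mettl3 itself (chr14:52295094-52296073, 980 bp) had 15.4 and 21.1 counts per 100 exon counts in METTL3 KO, against 8.24 and 8.61 in WT, and all other libraries lay between 6.85 and 12.6. The row counts were 8 and 16 in METTL3 KO, against 14 and 13 in WT, so the ratio moved with the lower exon sum of the edited gene. The change of 1.13 ± 0.45 did not pass (edgeR, adjusted p = 0.123). An exon bin of the other strand covers the whole intron, so reads of either strand cannot be told apart there.

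Some alternative exons among the rows belong to known pairs, and these were chosen after their values were seen. Pkm, which encodes pyruvate kinase of glycolysis, uses exon 9 for the M1 and exon 10 for the M2 isoform, M1 being the form of differentiated neurons and muscle and M2 that of dividing cells. Both exons are rows of the table and are 167 bp long, and 103 of 167 positions are identical (61.7%, without gaps). The capitals below mark positions where they differ, and the sequences were read from GENCODE M21 transcripts.
Pkm exon 9 (chr9:59675029-59675195, plus strand): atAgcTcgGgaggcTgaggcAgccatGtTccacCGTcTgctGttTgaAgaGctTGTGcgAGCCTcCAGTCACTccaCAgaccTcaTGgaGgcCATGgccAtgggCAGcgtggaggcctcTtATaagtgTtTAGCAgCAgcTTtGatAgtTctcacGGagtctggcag
Pkm exon 10 (chr9:59675568-59675734, plus strand): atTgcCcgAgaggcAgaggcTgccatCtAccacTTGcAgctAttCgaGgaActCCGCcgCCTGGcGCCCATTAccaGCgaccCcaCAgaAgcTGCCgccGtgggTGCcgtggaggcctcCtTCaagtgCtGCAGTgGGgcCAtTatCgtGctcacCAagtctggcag

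Exon 10 took most of the counts of the pair in every library. Exon 9 held 15.8% and 14.5% in METTL3 KO, against 11.4% and 12.8% in WT, with 95% Wilson intervals of 13.1% to 18.9%, 12.5% to 16.8%, 9.22% to 13.9% and 10.7% to 15.2%, which overlap between the groups and cover counting error only. In KO rescue it held 14.6% and 13.4% in clone 1 and 16.5% and 14.8% in clone 2. In RBM45 KO it held 8.65% and 9.01% in clone 1 and 14.1% and 16% in clone 2, and in control 11.1% and 11.1% in clone 1 and 7.89% and 7.86% in clone 2. In RBM45 KO and in control the clones differed more than the replicates of a clone, and these groups overlapped. Relative to all exons of Pkm, exon 9 had a log2 change of 0.38 ± 0.27 in METTL3 KO against WT, 0.40 ± 0.21 in RBM45 KO against control and 0.30 ± 0.21 in KO rescue against RBM45 KO, and none of these passed. The KO rescue libraries all lay above the control libraries in that share, and the log2 change of 0.70 ± 0.21 between them did not pass either (edgeR, adjusted p = 0.0927).

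Fn1, which encodes the matrix protein fibronectin, held its EDB exon (exon 25, 273 bp), its EDA exon (exon 33, 270 bp) and a 285 bp piece at the site of the variable region, with 391.2, 427.4 and 980.7 counts on average. EDB stood at 1.47 and 1.32 per 100 exon counts in METTL3 KO, against 1.16 and 1.39 in WT. It stood at 1.12, 1.13, 0.84 and 0.822 in KO rescue, 1.18, 1.15, 0.967 and 0.822 in RBM45 KO and 1.03, 1.13, 1.33 and 1.33 in control, so that again the clones of a genotype differed. EDA had a log2 change of 0.11 ± 0.28 in METTL3 KO and one of 0.14 ± 0.18 in RBM45 KO. App exon 7, the Kunitz inhibitor exon that most neurons leave out, had a relative coverage of 476% of the average exon bin and 5.25 to 7.47 counts per 100 exon counts over the 16 libraries. Its log2 change was 0.01 ± 0.27 in METTL3 KO and -0.10 ± 0.17 in RBM45 KO. In Tpm1, the tropomyosin gene, the exon at chr9:67047786-67047911 had 390.8 counts on average and its alternative at chr9:67048124-67048249 had 10.88. None of these exons passed in any comparison.

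**Figure D5:**
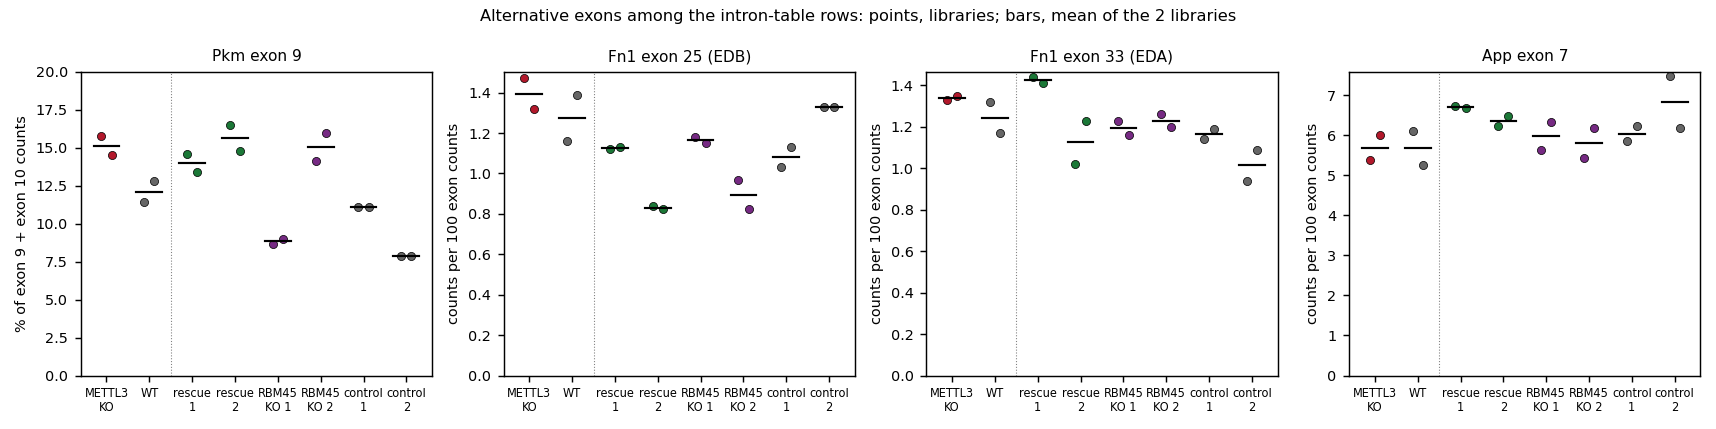
Share of exon 9 in the counts of Pkm exons 9 and 10, and counts per 100 exon-bin counts for Fn1 exon 25 (EDB), Fn1 exon 33 (EDA) and App exon 7, in each library (points) with the mean of the 2 libraries of each group (bars); each axis starts at 0. RBM45 KO clones 1 and 2 lie apart in Pkm exon 9, at 8.65% and 9.01% against 14.1% and 16%.

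The short complete introns that hold a small RNA gene made up a group of 83 in the test. Their median log2 change was 0.0599 in METTL3 KO, 0.043 in RBM45 KO, 0.0206 in KO rescue against RBM45 KO and 0.0353 in KO rescue against control. The 788 short complete introns without one had medians of 0.188, -0.0888, 0.171 and 0.0506. In each comparison both sets lay closer to 0 than the median over all introns. None rose in METTL3 KO, where 1.44% of all introns rose, and 1 rose in RBM45 KO (1.2%, against 0.0122% of all introns). In KO rescue 1 rose and 1 fell against RBM45 KO (1.2% each, against 16.8% and 0.0567% of all introns), and 4 rose against control (4.82%, against 1.06% of all introns). Of the 788 without a small RNA gene, 0.254% rose in METTL3 KO and none in RBM45 KO. In KO rescue 3.43% of them rose and 0.254% fell against RBM45 KO, and 0.254% rose and 0.127% fell against control. The 3 highest mean counts of all short complete introns in the test were in this group. Intron 2 of Snhg3, a non-coding host gene, holds Snora73b, lies wholly under an exon bin of the other strand and averaged 349.1 counts, with 46.6 and 35.4 per 100 exon counts in METTL3 KO, against 33.3 and 38.9 in WT. Intron 4 of Ncapd2, a condensin gene with Scarna10 inside, averaged 333.9 counts, and neither passed in any of the 4 comparisons. Snhg1 intron 8 with Snord22 had a log2 change of 0.66 ± 0.20 in RBM45 KO and did not pass (edgeR, adjusted p = 0.238).

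Eif4a2 held 11 rows, so its introns could be set side by side. Of the 9 complete introns, intron 8 had the highest relative coverage at 141%, while the others lay between 9.57% and 39.7%. In METTL3 KO the introns that hold a small RNA gene had log2 changes of -0.49 (intron 3), -1.0 (intron 6), 0.07 (intron 7), -0.75 (intron 8) and -1.27 (intron 9). Those without one had -0.83 (intron 1), -0.43 (intron 4), 0.70 (intron 10) and 0.36 (intron 11), and none of the 9 passed. In KO rescue against RBM45 KO introns 4 and 9 fell (-0.80 ± 0.25 and -1.01 ± 0.32; edgeR, adjusted p = 0.0353 and 0.0346), while the alternative exon 4 of the gene (140 bp) had a log2 change of 0.08 ± 0.18 and the last intron one of 0.02 ± 0.18. The rows of this gene are joined with its snoRNA genes, and every row shares 1 exon sum.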

How the data were processed

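Total RNA of 16 mHiPPoE-2 libraries was depleted of ribosomal RNA and sequenced with a non-directional kit, per the labels' protocols. The deposited values are raw counts of read pairs per feature from featureCounts 1.6.3, a version the file headers give. It counted every feature that held at least 0.1 of a pair, on the feature's own strand only, so reads of genes that overlap on the other strand cannot be told apart. Per the file headers, exon bins are those of Ensembl 98 (GRCm38) and introns those of a RefSeq annotation for mm10. The submitters' processing notes name HISAT2 2.1.0.

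Columns were joined to samples by name. The 4 control columns carry names found in no label and were taken as controls because every other column has its sample. Clone numbers of control and rescue cells are names only. No column of sample values was left out (0).

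Each intron row was joined to the exon bins of its gene through RefSeq accessions. Counts were fitted with edgeR 4.0.16 (quasi-likelihood, robust; R 4.3.3), with the log of the exon-bin sum plus 0.5 as offset, over 24689 introns with a mean of at least 10 counts and an exon sum of at least 50, and adjusted by Benjamini-Hochberg over all of them. METTL3 KO, WT and comparisons between clones used 16 libraries in 8 groups. RBM45 comparisons used 6 clones with libraries summed. Other fits used DESeq2 1.42.0 and diffSpliceDGE of edgeR. Row classes, intron numbers and sequences came from GENCODE M21. Python 3.11.15 was used for the other steps. The fit was tested on simulated data.

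Named introns are the 10 of highest relative coverage outside exon bins, the 10 largest rises and falls per comparison among those that passed with groups apart (1 per gene), the 5 of smallest p where fewer than 5 passed, up to 4 per gene list by p, and Mat2a, Clk1, Clk4, Srsf5 and Mettl3. The members and lists were chosen with earlier results of these data known.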

Additional observations from a re-analysis of the deposited data

Results flagged for a closer look

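In 8 of 258 groups of 4 libraries the highest or lowest library lay apart from the other 3. The gap was more than Dixon's critical value of 0.829 of the group's range. All 8 were groups of introns named in the report. With 4 independent libraries, chance flags about 1 in 20 such groups. Each group here joined 2 clones of 2 libraries, so that rate may not hold. All values are counts per 100 exon counts of the gene. In KO rescue, Clk1 intron 4 had 3.96 in a library of clone 2, Dhx9 intron 27 had 0.706 in a library of clone 1, Eif4a2 intron 9 had 1.2 in a library of clone 2, Snhg1 intron 8 had 14 in a library of clone 1, and the Taf1d piece had 0.852 in a library of clone 2, each the highest of its group. In RBM45 KO, Pcbp2 intron 11 had 0.198 in a library of clone 2, the lowest of its group, while Eif4a2 intron 7 had 2.99 and Srsf3 intron 4 had 2.54 in a library of clone 1, each the highest.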

How the results depend on the processing

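Counts of short introns that passed moved with most settings. In METTL3 KO against WT (2) they were 9 after centring on the median intron, 1 with a mean of at least 30 counts, 9 with diffSpliceDGE, 77 by TMM library size (the level of the intron itself; 12 higher and 65 lower), 1 in genes with a row of their own (chosen after seeing the data), and 0 to 0 with 1 library left out. In RBM45 KO against control (1) they were 3 centred, 2 with the exon sum without bins that overlap an intron, 0 outside exon bins, 0 with at least 30 counts, 0 by DESeq2, 0 by diffSpliceDGE, 0 by TMM library size, 0 with libraries as replicates, 0 in genes of their own row, and 0 to 3 with 1 clone left out. In KO rescue against RBM45 KO (35) they were 4 centred, 12 outside exon bins, 3 with at least 30 counts, 0 by DESeq2, 0 by diffSpliceDGE, 0 by TMM library size, 13 with libraries as replicates, and 0 to 35 with 1 clone left out (6 without RBM45 KO clone 2, 10 without KO rescue clone 1). In KO rescue against control (9) they were 15 with the reduced exon sum, 2 outside exon bins, 0 with at least 30 counts, 0 by DESeq2, 0 by diffSpliceDGE, 5 by TMM library size, 3 with libraries as replicates, 3 in genes of their own row, and 0 to 17 with 1 clone left out (16 without RBM45 KO clone 2). Fewer rows were tested outside exon bins (192) and at 30 counts (581). The cause of the other moves was not tested. The 5, 5, 13 and 7 named introns of these comparisons were picked by their p or as passing and kept their sign under every setting run. Those of KO rescue against RBM45 KO lost their call in 60 of 116 values under other settings and in 42 of 78 with a clone left out, and those of KO rescue against control in 38 of 62 and 25 of 42.

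With the replicate number of the columns as a block over all 16 libraries, 0 short introns passed in RBM45 KO against control, 21 in KO rescue against RBM45 KO and 4 in KO rescue against control, where libraries as replicates without the block gave 0, 13 and 3. In METTL3 KO against WT this replicate block gave 4, against 2 without it (chosen after seeing the data). Over the 8 libraries of METTL3 KO, WT and RBM45 KO alone, the block gave 22 (18 higher and 4 lower, 1.07%, with 17% of all introns called), and the same 8 libraries without it gave 22 (18 higher and 4 lower, with 16% of all introns called; chosen after seeing the data). Over the 28 pairs of groups, the deviations of same-numbered libraries correlated between -0.157 and 0.249, with 2 pairs over 0.1. These were the control clones with each other (0.249) and WT with control clone 2 (0.11). Not every library correlated best with its own number. Whether same-numbered libraries share a batch was not tested. Depth limits single rows: with 10 counts the counting interval runs from 4.8 to 18.4.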
